A study of Drosophila melanogaster with 24 samples.

Results

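The libraries compared are sorted clock neurons of young male fruit flies in which the mitochondrial fission gene Drp1 was targeted by CRISPR, set against clock neurons that carried Cas9 without a guide construct. The columns of the deposited UMI count table for young Drp1-mut and young Cas9 flies were taken, which gave 6 of the 24 libraries of the series, 3 in each group, and all genes were examined. A UMI (unique molecular identifier) marks 1 captured cDNA molecule. In both groups the CLK856-Gal4 driver, which is active in clock neurons, expressed UAS-Cas9 and UAS-eGFP, and in Drp1-mut flies it also expressed UAS-3XgRNA-Drp1, a construct with guides against Drp1. Flies of both groups were about 15 days old, were reared at 25 °C and had their brains dissected at ZT14, 14 hours after lights on. About 1000 GFP-positive cells were sorted for each library. All 3 libraries of a group were sorted from the same suspension, made from 80 to 100 brains. The p-values therefore measure only the spread between sorted pools, and effects of suspension and genotype cannot be told apart. Editing by Cas9 can leave a mixture of edited and unedited cells, and the share of edited cells was not measured in these files. Other groups of the series were used beside these. Young Marf-mut and Opa1-mut flies carried guides against Marf and Opa1. Old Cas9 and old Drp1-mut flies were about 35 days old. Old Marf-mut and old Opa1-mut entered the fits over the whole series.

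Drp1 is a dynamin-family GTPase that assembles around mitochondria and divides them. Marf, the fly mitofusin, joins outer mitochondrial membranes and Opa1 joins inner ones, so that mitochondrial shape depends on the balance of both activities. Neurons rely on fission to make mitochondria small enough to be carried along axons and to separate damaged parts for removal. Clock neurons are the brain cells that keep circadian time through daily cycles of per and tim transcription and signal through neuropeptides such as Pdf.

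Depth was 1318960 to 2889269 UMIs in young Drp1-mut and 1583625 to 2141193 UMIs in young Cas9. Between 9924 and 11047 genes were detected per library. All 6 libraries held the transcripts that define clock neurons. The level of tim, given here and throughout as CPM (a gene's UMIs relative to library size, scaled by TMM factors), was 764 to 898 in Cas9 and 796 to 1133 in Drp1-mut. Pdf was at 7415 to 14336 CPM in Cas9 and at 11044 to 15560 CPM in Drp1-mut. Replicate 3 of young Drp1-mut stood apart from the others of its group. The chi-square per degree of freedom between its counts and those of replicates 1 and 2 was 20.8 and 16.0, whereas it was 8.84 between replicates 1 and 2 and 3.27 to 10.8 for the other pairs of young libraries. This library was also the deepest of the series. The chi-square uses unscaled counts and grows with depth where counts vary beyond counting error. The part of depth in these values was not tested. Results are given with and without this library where it decides them.

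Drp1 mRNA was at 136, 136 and 163 CPM in the 3 young Cas9 libraries and at 118, 73.8 and 105 CPM in the 3 young Drp1-mut libraries. Each Drp1-mut library lay below every Cas9 library. The log2 fold change was -0.53 ± 0.17 (SE), which was not called by edgeR's quasi-likelihood test (adjusted p = 0.761). Guides change the DNA sequence of a gene and need not change the number of its transcripts, so this level is only a partial check of the labels. Drp1 lies on chromosome 2L at 2581281 to 2585430 on the minus strand (dm6) and its end overlaps Arpc5 on the other strand, which was at 75.6 to 94.6 CPM in Cas9 and 75.0 to 82.8 CPM in Drp1-mut. The genes of the opposing activity did not pass the test either. Marf was at 161, 128 and 143 CPM in Cas9 and 118, 114 and 129 CPM in Drp1-mut, with a log2 fold change of -0.23 ± 0.13. Opa1 was at 159, 129 and 146 CPM in Cas9 and 132, 152 and 142 CPM in Drp1-mut, and the 2 ranges overlapped.

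Few genes separated young Drp1-mut from young Cas9 neurons. Of 7220 genes tested, 6 were called at an adjusted p under 0.05 (0.0831%), 4 higher and 2 lower in Drp1-mut. The genes that rose were CG34423, y, w and Ldh, and those that fell were mthl8 and lncRNA:CR46393. The median log2 fold change over all genes tested was 0.01, and 357 genes had an unadjusted p under 0.05. All 3 Drp1-mut libraries lay above all 3 Cas9 libraries for 298 genes (4.13%) and below them for 423 genes (5.86%).

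The most complete difference was in mthl8, which encodes a methuselah-like G protein-coupled receptor and lies on chromosome 3L at 22428 to 26308. It was at 73.2, 61.3 and 54.5 CPM in young Cas9, and no UMI was counted in any young Drp1-mut library. Against a floor of 3 counts over the 3 libraries its level was at least 125-fold lower (edgeR adjusted p = 5.48e-06). CG34423 (chromosome 2R, 23358612 to 23359204) went the other way. It stands on the list for ATP synthase and its inhibitor, but the reference tables used here give it no role. Its level was 0.534, 0.652 and 0.900 CPM in Cas9, from 1, 1 and 2 UMIs, and 45.4, 27 and 24 CPM in Drp1-mut. The log2 fold change was 5.37 ± 0.48 (adjusted p = 0.000153), and the groups did not overlap for either gene. Both genes were called under all 16 alternative settings tried. mthl8 also had no UMI in young Opa1-mut. The labels do not give the parental backgrounds of the lines. For any called gene, effects of background and of the guides therefore cannot be told apart.

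y and w, whose products serve cuticle pigmentation and the transport of eye pigment precursors, were also higher. Both are widely used as visible markers of fly transgenes. y (chromosome X, 356509 to 361245) was at 14.4, 3.91 and 9.0 CPM in Cas9 and 153, 247 and 288 CPM in Drp1-mut, a log2 fold change of 4.64 ± 0.38 (adjusted p = 0.00572). w (chromosome X, 2790599 to 2796466) was at 32.6, 30.0 and 29.7 CPM in Cas9 and 60.8, 82.8 and 68.5 CPM in Drp1-mut, a log2 fold change of 1.22 ± 0.17 (adjusted p = 0.0113). The lowest Drp1-mut library exceeded the highest Cas9 library for both. Counts do not tell a transcript of the endogenous gene from one of a transgene copy, and the part of the inserted constructs in these levels was not tested. w lies on the strand opposite to kirre, within its span, and kirre was at 17.6 to 22.4 CPM in Cas9 and 9.61 to 18.2 CPM in Drp1-mut.

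Ldh encodes lactate dehydrogenase, which interconverts pyruvate and lactate, and lies on chromosome 3L at 6259105 to 6262694. Its level was 19.8, 20.2 and 12.6 CPM in Cas9 and 93.3, 46.2 and 85.8 CPM in Drp1-mut, with no overlap. The log2 fold change was 2.14 ± 0.28 (adjusted p = 0.0193). The long noncoding RNA lncRNA:CR46393 was at 35.3, 45.6 and 28.8 CPM in Cas9 and at 9.74, 13.8 and 10.4 CPM in Drp1-mut, a log2 fold change of -1.66 ± 0.26 (adjusted p = 0.0251). It runs from 19212154 to 19212727 on chromosome 3R and starts at the same base and on the same strand as cry, the cryptochrome gene of the clock, so that how 5′ reads were split between the genes is uncertain. cry itself was at 379, 424 and 322 CPM in Cas9 and 241, 465 and 397 CPM in Drp1-mut, which overlap.

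**Figure D1:**
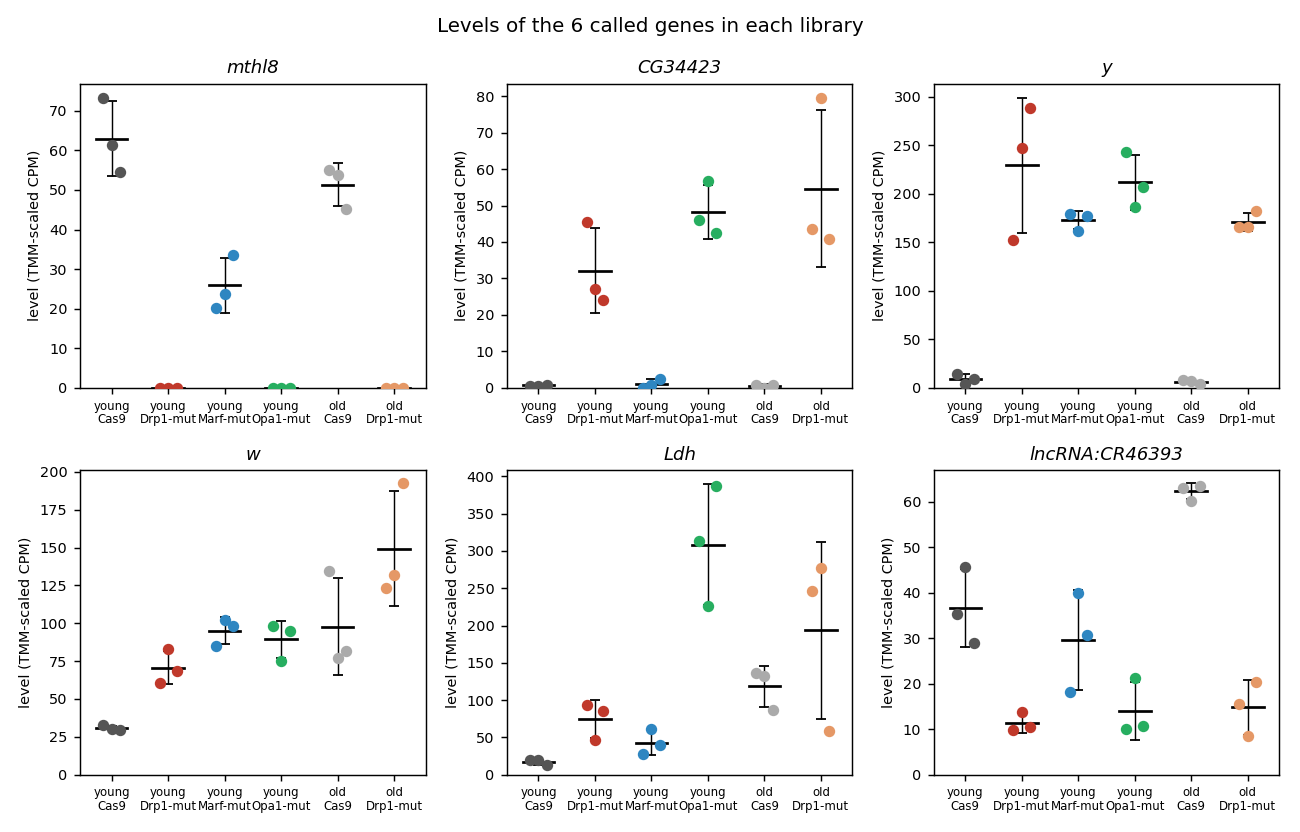
Level in TMM-scaled CPM of the 6 called genes (vertical axes, linear from 0) in each library of the 4 young groups and of old Cas9 and old Drp1-mut. Points are libraries, horizontal bars are means and error bars are SDs (n = 3); mthl8 has no UMI in the young Drp1-mut libraries, and the young Drp1-mut and young Cas9 points do not overlap in any panel.

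The calls on y, w, Ldh and lncRNA:CR46393 were lost under some alternatives, mostly when 1 library was left out. y was not called without replicate 3 of Cas9 or without replicate 2 of Drp1-mut, and w was lost without Cas9 replicate 1, Cas9 replicate 3 or Drp1-mut replicate 2. Ldh was not called when any of the 3 Cas9 libraries was left out, and lncRNA:CR46393 was lost without any of the Cas9 libraries and without replicate 1 or 2 of Drp1-mut. y was also lost with total count scaling and with a replicate block, Ldh with all 12 young or all 24 libraries in the fit, and lncRNA:CR46393 with the 12 young ones. Over all alternatives the log2 fold change stayed between 4.34 and 5.08 for y, 1.10 and 1.30 for w, 1.93 and 2.39 for Ldh, and -1.82 and -1.46 for lncRNA:CR46393. The adjusted p reached 0.284, 0.128, 0.411 and 0.170 in these 4 genes.

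A further set of genes passed other count tests with the same libraries. DESeq2 run on all genes with a UMI called 19 of 9710 genes (0.196%), and the authors' deposited table, also made with DESeq2, lists 18 of 9972 genes with an adjusted p under 0.05 (0.181%). All 6 genes called by edgeR are in both sets, and 14 genes are shared by the 2 DESeq2 sets. In edgeR all 18 genes of the authors' deposited table have the direction that the table gives.

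Syt7 and Syngr were among them. Syt7, a member of the synaptotagmin family, was at 231, 246 and 248 CPM in Cas9 and 152, 163 and 133 CPM in Drp1-mut, a log2 fold change of -0.68 ± 0.12 (edgeR adjusted p = 0.0781, DESeq2 adjusted p = 0.000132). Syngr, the synaptogyrin of the vesicle membrane, was at 466, 451 and 488 CPM in Cas9 and 337, 300 and 339 CPM in Drp1-mut, a log2 fold change of -0.50 ± 0.11 (edgeR adjusted p = 0.270, DESeq2 adjusted p = 0.00468). All Drp1-mut libraries lay below all Cas9 libraries for both genes. Among the 28 tested genes of the synaptic release list, which holds Syngr and not Syt7, no member was called by edgeR, 6 lay wholly below the Cas9 libraries and 0 above, and the median log2 fold change was -0.05. Over all genes tested 5.86% lay wholly below and 4.13% wholly above. The values with the smallest unadjusted p after Syngr were -0.28 ± 0.10 for comt, the NSF ATPase that recycles fusion complexes, -0.32 ± 0.12 for the vesicle phosphoprotein Syn, and -0.30 ± 0.12 for the membrane fusion protein Snap25.

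LTV1, known in yeast as a factor for assembly of the small ribosomal subunit, was at 197, 187 and 194 CPM in Cas9 and 126, 129 and 135 CPM in Drp1-mut. Its log2 fold change was -0.55 ± 0.11 (edgeR adjusted p = 0.270, DESeq2 adjusted p = 0.0073), and the libraries of each group lay close together. CG10527, listed in RefSeq under the synonym FAMeT, was at 574, 408 and 582 CPM in Cas9 and 362, 305 and 320 CPM in Drp1-mut, a log2 fold change of -0.64 ± 0.14. CG14015, to which no role is given here, was at 131, 75.6 and 115 CPM in Cas9 and 55.2, 58.2 and 63.7 CPM in Drp1-mut. Each of these genes was lower in 3 of 3 Drp1-mut libraries.

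Higher in at least 1 of the same tests were Nhe3, sr and Adk2. Nhe3, a sodium and proton exchanger, was at 81.8, 91.9 and 103.5 CPM in Cas9 and 136, 129 and 150 CPM in Drp1-mut, a log2 fold change of 0.60 ± 0.14 (DESeq2 adjusted p = 0.0387). sr, a transcription factor of the EGR family that is induced by neuronal activity in insects, was at 20.3, 24.8 and 33.3 CPM in Cas9 and 51.9, 66.0 and 44.2 CPM in Drp1-mut, a log2 fold change of 1.04 ± 0.23 (edgeR adjusted p = 0.270, DESeq2 adjusted p = 0.02). Adk2, to which no role is given here because the symbol is used for different genes in different annotations, was at 20.8, 20.9 and 20.7 CPM in Cas9 and 56.0, 42.0 and 30.5 CPM in Drp1-mut. In the authors' deposited table its log2 fold change is 1.03 with an adjusted p of 0.0493, and DESeq2 as run here did not call it. The groups did not overlap for any of these genes.

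**Figure D2:**
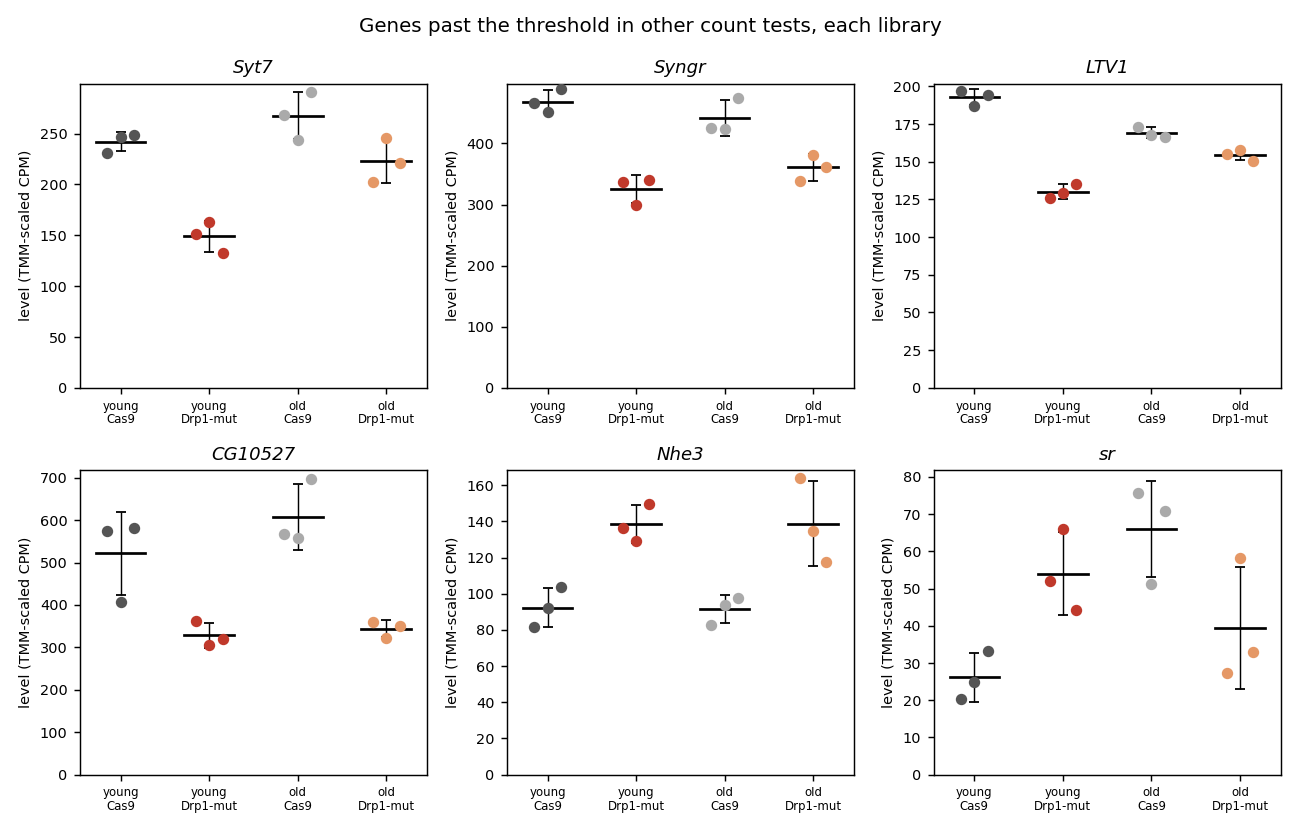
Level in TMM-scaled CPM (vertical axes, linear from 0) of Syt7, Syngr, LTV1, CG10527, Nhe3 and sr in each library of young and old Cas9 and Drp1-mut. Points are libraries, horizontal bars are means and error bars are SDs (n = 3); in young flies the groups are separate in all 6 panels, and in old flies sr is at 51.4 to 75.6 in Cas9 and 27.2 to 58.2 in Drp1-mut.

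Some other genes of these sets rested on 1 library or on few molecules. Arr1, the arrestin of photoreceptors, was at 2.14, 1.96 and 1.80 CPM in Cas9 and 8.11, 7.80 and 31.8 CPM in Drp1-mut, and without replicate 3 its edgeR log2 fold change was 2.02 instead of 3.11. Ilp2, an insulin-like peptide of other neurosecretory cells, was at 3.21, 1.30 and 2.25 CPM in Cas9 and 4.87, 16.2 and 28.6 CPM in Drp1-mut, called by DESeq2 and not tested by edgeR because of its low counts. The mitochondrial transfer RNA trnC did not rest on 1 library. It was at 0.534, 2.61 and 7.20 CPM in Cas9 and 33.3, 39.6 and 10.7 CPM in Drp1-mut, without overlap. Its adjusted p in the authors' deposited table, by DESeq2, is 0.0014. lncRNA:CR44138 was at 0, 1.30 and 0 CPM in Cas9 and 8.11, 9.61 and 9.42 CPM in Drp1-mut (edgeR adjusted p = 0.0543), the gene nearest outside the threshold.

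The transcripts of digestive enzymes marked replicate 1 of young Drp1-mut. Jon99Cii, a gut serine protease, was at 1.07, 2.61 and 5.85 CPM in Cas9 and 651, 31.2 and 6.17 CPM in Drp1-mut. Jon99Ciii was at 0.534, 2.61 and 7.20 CPM in Cas9 and 709, 35.4 and 5.20 CPM in Drp1-mut. Both are in the authors' deposited table with adjusted p of 0.00592 and 0.0339, and edgeR gave an adjusted p of 0.997 for each. Summed over 8 digestive enzyme genes (Jon99Ci, Jon99Cii, Jon99Ciii, Jon65Aiv, alphaTry, betaTry, Mal-A1 and Mal-A6), chosen after their values were seen, the level was 10.7 to 57.2 CPM in Cas9 and 3970, 130 and 45.8 CPM in Drp1-mut replicates 1 to 3. In the same replicate 1 the fat body gene CG13315 was at 717 CPM, against 4.80 and 26 CPM in replicates 2 and 3 and 3.74 to 39.2 CPM in Cas9.

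Markers of other cell types were summed for each library. Over 20 glial genes the summed level was 1312 to 1613 CPM in Cas9 and 1293 to 1521 CPM in Drp1-mut. Over 17 photoreceptor genes it was 320 to 402 CPM in Cas9 and 352 to 485 CPM in Drp1-mut, with Rh3 and Rh6 at 0 in all Cas9 libraries. The sum of 15 hemocyte genes was 293 to 307 CPM in Cas9 and 320, 304 and 595 CPM in Drp1-mut replicates 1 to 3, and lz was at 0 throughout. The 17 fat body genes summed to 320 to 441 CPM in Cas9 and 1172, 440 and 407 CPM in Drp1-mut, and Lsp1gamma, Fbp1, Fbp2 and fit were at 0 in both groups. For 18 muscle and tracheal genes the sum was 29.4 to 66.6 CPM in Cas9 and 27.3 to 54.4 CPM in Drp1-mut, with TpnC4, btl and verm at 0 in both. Markers of other neurons, 17 genes that include ey, Imp and mamo beside genes for transmitter synthesis and transport, summed to 7570 to 8723 CPM in Cas9 and 6357 to 9540 CPM in Drp1-mut. CG13315 alone made up 717 CPM of the fat body sum in replicate 1. The part of such cells or of free RNA in the calls was not tested. In bulk pools, fewer cells of a type and less RNA per cell cannot be told apart.

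Gene lists were used to describe pathways, and of 41 lists 37 held no called gene. Among the mitochondrial lists, the mRNAs made from mitochondrial DNA, which encode subunits of the respiratory chain and ATP synthase, had the highest median. All 13 were tested, none was called, all 13 had a log2 fold change above 0, and their median was 0.48, against 0.01 over all genes. The libraries did not act alike. These mRNAs made up 4.64%, 5.57% and 4.19% of UMIs in Cas9 replicates 1 to 3 and 7.44%, 7.17% and 4.10% in Drp1-mut replicates 1 to 3. In Drp1-mut replicates 1 and 2 each of the 13 mRNAs exceeded every young Cas9 library, and in replicate 3 none exceeded the Cas9 mean. ND4, a complex I subunit, was at 1556, 2112 and 1418 CPM in Cas9 and 3312, 2819 and 1270 CPM in Drp1-mut. ATP8, of ATP synthase, was at 3229, 4498 and 2993 CPM in Cas9 and 6855, 6584 and 2935 CPM in Drp1-mut.

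Without replicate 3 of Drp1-mut the median of the 13 was 0.75 and 4 of them were called higher: ND1, ND4, ND6 and ATP8. With log2 depth as a covariate 4 were called as well, and the median was 0.44. In each of the 4 young groups the deepest library had the lowest share of these mRNAs. In Marf-mut, for example, replicate 3 had 2104854 UMIs and a share of 3.31%, whereas replicates 1 and 2 had 1406296 and 1328007 UMIs and shares of 5.14% and 5.10%.

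**Figure D3:**
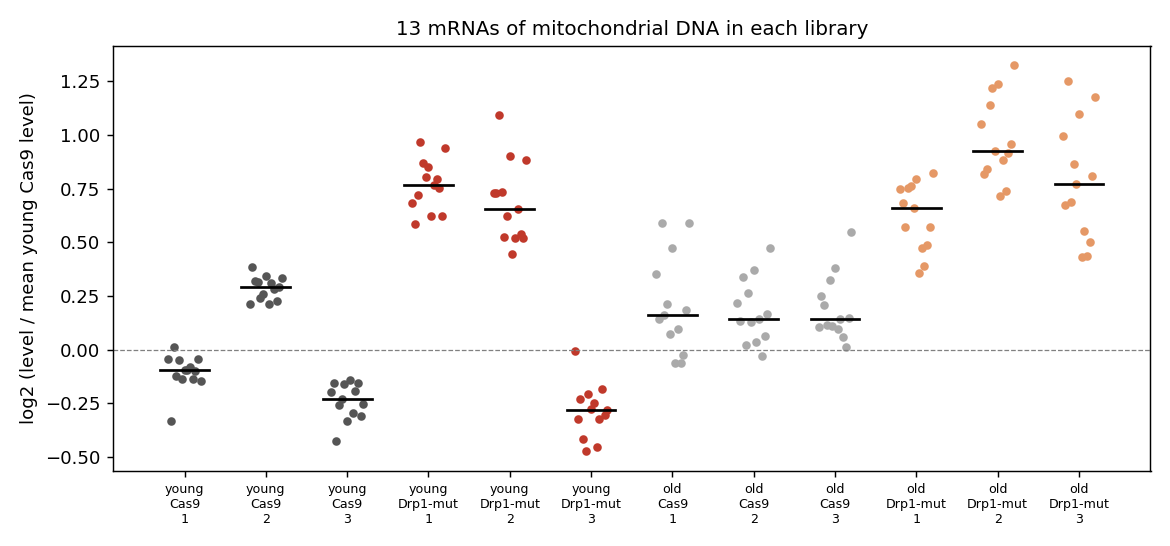
Each point is 1 of the 13 mRNAs of mitochondrial DNA in 1 library, as the log2 ratio of its level to its mean in young Cas9 (vertical axis), for the libraries of young and old Cas9 and Drp1-mut (horizontal axis); black bars are medians of the 13. Points of young Drp1-mut replicates 1 and 2 and of all 3 old Drp1-mut libraries lie above 0, and those of young Drp1-mut replicate 3 lie at or below 0.

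No nuclear gene for complexes I to IV of the respiratory chain was called with all 6 libraries. Of 32 complex I subunits 12 were above 0 and 20 below, and the median log2 fold change was -0.04. Those with the smallest unadjusted p included ND-20, at 425, 453 and 410 CPM in Cas9 and 378, 360 and 318 CPM in Drp1-mut, a log2 fold change of -0.27 ± 0.12. For 6 of the 32 all Drp1-mut libraries lay below Cas9, against 5.86% of all genes tested, and for 0 above, against 4.13%. Among 23 genes of complexes II to IV the median was -0.04, with values of -0.23 ± 0.10 for SdhA, the flavoprotein of complex II, and -1.21 ± 0.34 for the low-abundance COX7AL. In the list for ATP synthase and its inhibitor CG34423 was called among 15 genes tested, and the median was -0.01. The sign of these 3 medians depended on single libraries of both groups. Without replicate 3 of Drp1-mut they were 0.10 for complex I, 0.11 for complexes II to IV and 0.14 for ATP synthase and its inhibitor. Without replicate 2 of Cas9 they were 0.01, 0.04 and 0.09. Without Drp1-mut replicate 3 the complex I gene ND-MWFE and the ATP synthase gene ATPsynE were called higher, at log2 fold changes of 0.69 ± 0.15 and 0.61 ± 0.13 (edgeR adjusted p = 0.0482 and 0.0424). The 72 mitochondrial ribosomal protein genes had a median of 0.01, and 13 genes for mitochondrial DNA maintenance and expression had a median of -0.05, with 0 called in either list.

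The genes of mitochondrial shape, movement and removal held no called gene. Besides Drp1, the fission list held Fis1, the outer membrane adaptor, at 685, 593 and 524 CPM in Cas9 and 659, 610 and 537 CPM in Drp1-mut, and Tango11, the fly relative of the Drp1 receptor MFF, at a log2 fold change of -0.11 ± 0.13. The 9 fusion and cristae genes had a median of -0.02. All 8 transport genes were slightly below 0, with a median of -0.06 and with -0.09 ± 0.15 for Miro, the GTPase that links mitochondria to motors. Of 25 mitophagy and autophagy genes none was called and the median was -0.01. Pink1, the kinase that marks damaged mitochondria, was at 97.3, 93.9 and 110 CPM in Cas9 and 74.6, 75.0 and 84.1 CPM in Drp1-mut, a log2 fold change of -0.34 ± 0.14 (edgeR adjusted p = 0.884). Pi3K59F, the Vps34 lipid kinase of autophagy, was at 24, 28.7 and 22.5 CPM in Cas9 and 37.3, 33.6 and 31.8 CPM in Drp1-mut, a log2 fold change of 0.47 ± 0.20 (edgeR adjusted p = 0.936). The groups did not overlap for either gene. Among the 25 genes 1 lay wholly above Cas9 and 1 wholly below, beside 4.13% and 5.86% of all genes tested. The 15 peroxisome genes, which Drp1 also concerns because it divides peroxisomes, had a median of -0.04 and none was called.

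Of 21 genes for glycolysis and the fate of pyruvate, Ldh was called higher and none was called lower. The median was -0.10, 5 were above 0 and 16 below, and 7 lay wholly below Cas9 without being called (5.86% of all genes tested lay wholly below), among them Tpi, Pgk, Eno and Gapdh1 at log2 fold changes of -0.21, -0.14, -0.09 and -0.11. Gpdh1, the cytosolic glycerol-3-phosphate dehydrogenase, was at 306, 267 and 311 CPM in Cas9 and 242, 209 and 222 CPM in Drp1-mut, a log2 fold change of -0.37 ± 0.11 (edgeR adjusted p = 0.714). The 23 genes of the tricarboxylic acid cycle had a median of -0.08, with 16 below 0 and 0 called. In this list 5 genes lay wholly below Cas9, beside the same 5.86% of all genes.

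**Figure D4:**
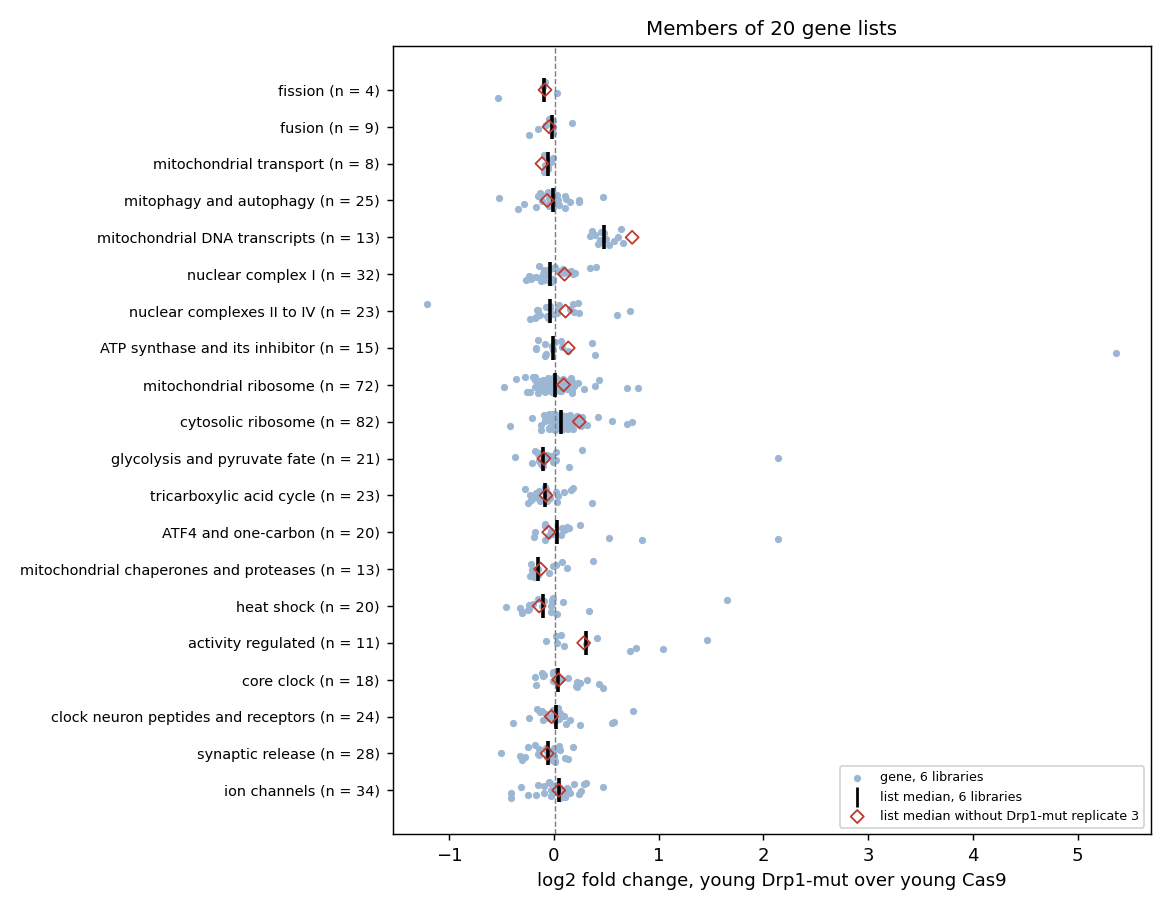
Log2 fold change of young Drp1-mut over young Cas9 (horizontal axis) for every tested member of 20 gene lists (rows, n tested in brackets). Small points are genes, black ticks are list medians with all 6 libraries, red diamonds are list medians without Drp1-mut replicate 3, and the dashed line is the median of all genes tested; the mRNAs of mitochondrial DNA have a median of 0.48, which is 0.75 without that replicate.

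No stress gene other than Ldh was called with all 6 libraries. In the list for ATF4 targets and one-carbon metabolism, 20 genes were tested, Ldh was called and the median was 0.03. crc, the fly ATF4, was at 635, 647 and 639 CPM in Cas9 and 631, 559 and 598 CPM in Drp1-mut. Of 13 genes for mitochondrial chaperones and proteases none was called, and the median was -0.15. The mitochondrial Hsp70 gene Hsc70-5 had a log2 fold change of -0.23 ± 0.14. Among 20 heat shock genes none was called, 16 were below 0 and the median was -0.10. Of the 20, 2 lay wholly above Cas9 and 5 wholly below, beside 4.13% and 5.86% of all genes tested. The small heat shock gene l(2)efl was at 23.0, 12.4 and 18.5 CPM in Cas9 and 29.2, 96.7 and 42.6 CPM in Drp1-mut, a log2 fold change of 1.65 ± 0.49, and Hsp27 was at -0.31 ± 0.13. Hsp70 copies are near-identical, so their separate counts are uncertain. The 23 antioxidant and detoxification genes had a median of 0.05, and the cytochrome P450 gene Cyp4p2, at 3.74, 0.652 and 4.50 CPM in Cas9 and 16.2, 12.6 and 8.45 CPM in Drp1-mut, had a log2 fold change of 1.93 ± 0.50 (edgeR adjusted p = 0.605).

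Activity-regulated genes had a median of 0.31 over 11 genes, 10 of them above 0, and 0 were called by edgeR. Besides sr, the list holds Arc1, a capsid-like gene related to retrotransposon Gag, at 80.2, 36.5 and 80.1 CPM in Cas9 and 96.5, 130 and 109 CPM in Drp1-mut, and the nuclear receptor gene Hr38, at 7.48, 26.7 and 19.4 CPM in Cas9 and 30.8, 22.8 and 32.5 CPM in Drp1-mut. Arc1 did not overlap between the groups and Hr38 did. Their log2 fold changes were 0.78 ± 0.25 and 0.73 ± 0.36.

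No gene of the clock or its output peptides was called with all 6 libraries at this time of day. For 18 core clock genes the median was 0.04. vri, a repressor of Clk, was at 379, 353 and 316 CPM in Cas9 and 445, 596 and 349 CPM in Drp1-mut, a log2 fold change of 0.43 ± 0.18 (edgeR adjusted p = 0.955). Without Drp1-mut replicate 3 vri was called higher, at 0.62 ± 0.13 (edgeR adjusted p = 0.0456). per was at 107, 75.0 and 63.0 CPM in Cas9 and 81.1, 133 and 117 CPM in Drp1-mut, a log2 fold change of 0.46 ± 0.21. The ranges of vri and per overlapped between groups. For 24 peptides and receptors of clock neurons the median was 0.02. Dh44 was at 408, 333 and 380 CPM in Cas9 and 437, 492 and 938 CPM in Drp1-mut, a log2 fold change of 0.76 ± 0.26, which was 0.36 ± 0.12 without replicate 3. sNPF-R, the receptor of short neuropeptide F, was at 21.9, 28 and 26.1 CPM in Cas9 and 45.4, 34.2 and 32.2 CPM in Drp1-mut, a log2 fold change of 0.55 ± 0.21. Among 34 ion channel genes and 9 nicotinic acetylcholine receptor genes none was called, and the medians were 0.05 and -0.12. The lists for cell death (11 genes) and for DNA damage and repair (14 genes) had medians of 0.02 and -0.08, and none of their members was called.

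Leaving out replicate 3 of young Drp1-mut raised the number of called genes from 6 to 41 of 7311 (0.561%), 35 higher and 6 lower. All 6 genes called with the full set were among them. Of the other 35 genes, 31 were called higher and 4 lower. These genes were not called once replicate 3 was included. That choice partly fixes values of replicate 3 nearer to Cas9. In replicate 3, 14 of the 31 were above every Cas9 library, 10 were inside the Cas9 range and 7 were below it. Thor, the 4E-BP that restrains translation, was at 113, 92.6 and 139 CPM in Cas9 and 267, 247 and 98.1 CPM in Drp1-mut, and its log2 fold change was 0.85 ± 0.44 with all 6 libraries and 1.20 ± 0.16 without replicate 3 (edgeR adjusted p = 0.997 and 0.00114).

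The other genes named by the same rule had mixed functions. RpL34b, a protein of the large ribosomal subunit, was at 258, 395 and 345 CPM in Cas9 and 681, 629 and 279 CPM in Drp1-mut. mRpL33, of the mitochondrial ribosome, was at 65.7, 105 and 81.0 CPM in Cas9 and 174, 157 and 73.1 CPM in Drp1-mut. Both were high in replicates 1 and 2 and within or near the Cas9 range in replicate 3. BomT2, a secreted immune peptide induced by Toll signalling, was at 3.74, 3.91 and 5.40 CPM in Cas9 and 24.3, 18.0 and 7.47 CPM in Drp1-mut. Npc2b, of the sterol-binding NPC2 family, was at 90.8, 71.1 and 54.9 CPM in Cas9 and 137, 161 and 79.3 CPM in Drp1-mut. Ptip, a partner of histone methyltransferases, and the Bearded family gene E(spl)m6-BFM had log2 fold changes of 1.37 ± 0.24 and 1.49 ± 0.27 without replicate 3. sr and Adk2 were called there as well, at 1.21 ± 0.23 and 1.26 ± 0.23.

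The 4 additional genes called lower without replicate 3 were sNPF, TwdlW, vari and CalpA. sNPF, a peptide of clock neurons, was at 619, 676 and 635 CPM in Cas9 and 341, 406 and 705 CPM in Drp1-mut, and its log2 fold change without replicate 3 was -0.74 ± 0.13 (edgeR adjusted p = 0.0138). TwdlW, of a cuticle protein family, was at 63.1, 83.5 and 94.1 CPM in Cas9 and 10.5, 19.2 and 68.9 CPM in Drp1-mut. vari, a scaffold of septate junctions, was at 89.2, 68.5 and 91.4 CPM in Cas9 and 38.9, 37.2 and 81.9 CPM in Drp1-mut. CalpA, a calcium-activated protease, was at 116, 95.9 and 105 CPM in Cas9 and 54.4, 59.4 and 114 CPM in Drp1-mut. In each of the 4 genes replicates 1 and 2 were below every Cas9 library, as the rule for naming required, and replicate 3 was not.

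**Figure D5:**
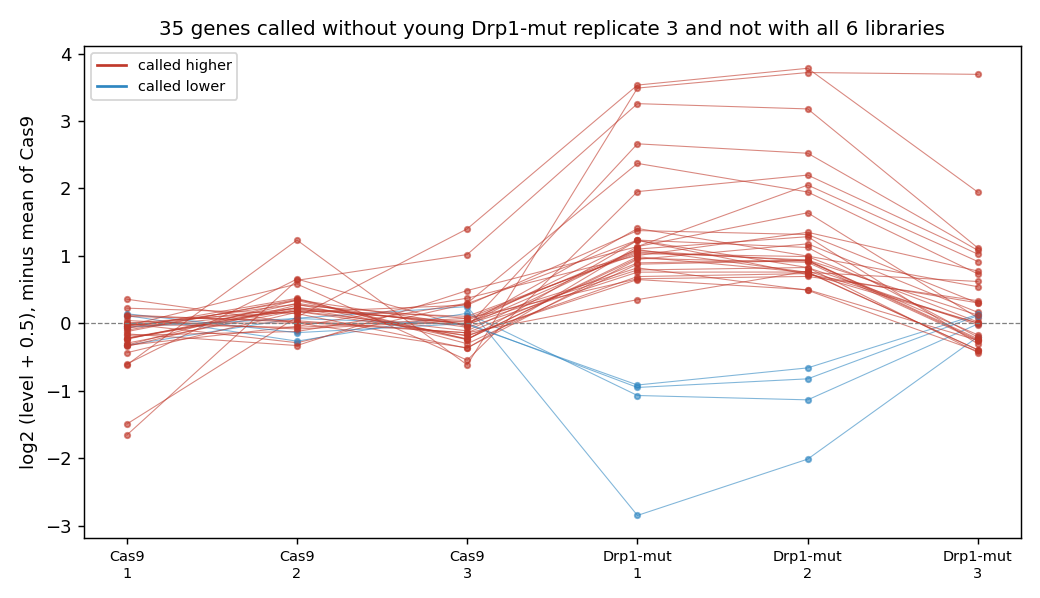
Level of the 35 genes called without young Drp1-mut replicate 3 and not with all 6 libraries, as log2 (CPM + 0.5) minus the mean of young Cas9 (vertical axis), in the 6 libraries (horizontal axis). Each line is a gene, red for the 31 called higher and blue for the 4 called lower. Most lines return towards 0 in replicate 3, which the choice of genes partly fixes.

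Transcript length varied with the same split. The 35 genes called higher without replicate 3 had a median exonic length of 846.5 bases (28 with a length in the annotation), against 2302 bases over the genes tested (6795 of 7220 with a length). Over 926 tested genes with under 1000 exonic bases the median log2 deviation from the Cas9 mean was 0.20, 0.12 and -0.15 in Drp1-mut replicates 1 to 3 and 0.02, 0.09 and -0.10 in Cas9 replicates 1 to 3. Over 1172 genes with more than 5000 bases it was -0.01, 0.10 and 0.06 in Drp1-mut. The part of transcript length in the calls without replicate 3 was not tested. The 82 cytosolic ribosomal protein genes, which are short, had a median log2 fold change of 0.07 with all libraries and 0.24 without replicate 3.

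The same genes were compared directly between young Drp1-mut and the lines with guides against the fusion genes. Against young Marf-mut 33 of 7178 genes were called (0.46%), 16 higher and 17 lower in Drp1-mut. Against young Opa1-mut 16 of 7158 were called (0.224%), 1 higher and 15 lower. mthl8 was at 20.3, 23.8 and 33.6 CPM in Marf-mut and had no UMI in Opa1-mut, as in Drp1-mut. CG34423 was at 0, 0.768 and 2.52 CPM in Marf-mut and 46.0, 56.6 and 42.4 CPM in Opa1-mut, so that it was higher in Drp1-mut than in Marf-mut (log2 fold change 4.49 ± 0.55, edgeR adjusted p = 0.00341) and not called against Opa1-mut (-0.65 ± 0.25, edgeR adjusted p = 0.662). y was at 162 to 179 CPM in Marf-mut and 186 to 243 CPM in Opa1-mut, and w was at 85.2 to 102 CPM and 75.3 to 98.0 CPM. Neither was called against Drp1-mut.

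Ldh was at 27.9, 61.4 and 39.4 CPM in Marf-mut and 313, 226 and 387 CPM in Opa1-mut. The log2 fold change of Drp1-mut was 0.82 ± 0.33 over Marf-mut and -2.06 ± 0.32 over Opa1-mut, without a call (edgeR adjusted p = 0.517 and 0.204). Arc1 was at 571, 511 and 634 CPM in Opa1-mut, and its level in Drp1-mut was lower by the test (-2.37 ± 0.13, edgeR adjusted p = 1.23e-06). Arc2, its paralog, was also lower, at -1.19 ± 0.15. Syt7 was at 251, 259 and 233 CPM in Opa1-mut and 166, 178 and 148 CPM in Marf-mut. It was called lower in Drp1-mut than in Opa1-mut (-0.75 ± 0.12, edgeR adjusted p = 0.0201) and was not called against Marf-mut (-0.13 ± 0.13, edgeR adjusted p = 0.857). Hsp27 was called lower than in Opa1-mut at -0.73 ± 0.12.

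Against Marf-mut the cell adhesion gene DIP-zeta was at 81.7, 69.9 and 67.5 CPM in Marf-mut and 21.9, 28.8 and 29.2 CPM in Drp1-mut, and it was called lower in Drp1-mut (-1.43 ± 0.18, edgeR adjusted p = 0.00304). comt was called lower at -0.63 ± 0.11, and Cyp4p2 and Hsp67Bc were called higher at 3.27 ± 0.58 and 0.82 ± 0.16. CG14015 and CG10527 were at 122 to 131 CPM and 590 to 703 CPM in Marf-mut, and both were called lower in Drp1-mut, at -1.09 ± 0.13 and -0.94 ± 0.14. In Opa1-mut they were at 60.5 to 70.8 CPM and 297 to 361 CPM, close to Drp1-mut, and neither was called there.

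Old flies of about 35 days gave a comparison that shares no library with the young one. Between old Drp1-mut and old Cas9, 27 of 6847 genes were called (0.394%), 18 higher and 9 lower. Of the 6 genes called in young flies, all 6 had the same direction in old flies and 4 were called in both, which is 66.7% of the young calls and 14.8% of the old ones. These 4 were mthl8, with no UMI in old Drp1-mut and 45.1 to 55.1 CPM in old Cas9, CG34423, y and lncRNA:CR46393. w was at 135, 77.0 and 81.9 CPM in old Cas9 and 123, 132 and 193 CPM in old Drp1-mut, and Ldh was at 136, 132 and 86.5 CPM in old Cas9 and 246, 277 and 58.0 CPM in old Drp1-mut. Both ranges overlapped in old flies, unlike in young ones. Drp1 mRNA was called lower in old flies, at 165, 153 and 162 CPM in Cas9 and 89.8, 97.9 and 65.9 CPM in Drp1-mut (log2 fold change -0.89 ± 0.16, edgeR adjusted p = 0.00624).

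The mRNAs of mitochondrial DNA were called higher in old Drp1-mut for 12 of 13, with a median of 0.64. ND5 had the smallest p of these, at 1945 to 2022 CPM in old Cas9 and 2927 to 3515 CPM in old Drp1-mut, a log2 fold change of 0.70 ± 0.09 (edgeR adjusted p = 8.06e-05), and its young value was 0.50 ± 0.26 (edgeR adjusted p = 0.997). The 13 mRNAs made up 6.65%, 8.33% and 7.16% of UMIs in old Drp1-mut replicates 1 to 3 and 5.04% to 5.19% in old Cas9. Depth was 1148217, 767438 and 684175 UMIs in these old Drp1-mut libraries and 1109778 to 1313809 UMIs in old Cas9. The part of depth in the old calls on these mRNAs was not tested. CG10527 was also called lower in old flies at -0.80 ± 0.12. Syt7 and LTV1 were at -0.25 ± 0.12 and -0.11 ± 0.13 in old flies, without a call.

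Whether the Drp1-mut effect differed between ages was tested as an interaction over these 4 groups. edgeR called 0 of 7256 genes (0%), with 260 at an unadjusted p under 0.05, and DESeq2 called 3, sr, Hr38 and the actin gene Act57B. sr was higher in Drp1-mut in young flies and at -0.76 ± 0.26 in old ones, a difference of effects of -1.80 ± 0.37 on the log2 scale (edgeR adjusted p = 0.218). Hr38 was at 50.6 to 59.9 CPM in old Cas9 and 15.6 to 22 CPM in old Drp1-mut, and its difference of effects was -2.19 ± 0.45 (edgeR adjusted p = 0.218). Act57B, a muscle actin, was at 0.534 to 11.1 CPM in young Cas9, 0.600 to 0.811 CPM in young Drp1-mut, 0 to 0.788 CPM in old Cas9 and 9.07 to 17.2 CPM in old Drp1-mut. For Cda9, a chitin deacetylase family gene, the difference was -2.92 ± 0.72.

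With counts summed to 1 value per suspension, so that the 8 suspensions of the series are the units and age is a term, 12 of 8707 genes were called for Drp1-mut against Cas9 (0.138%), 9 higher and 3 lower. y, mthl8 and CG34423 were called again, with y at 4.73 ± 0.15. w and Ldh were not, at 0.82 ± 0.35 and 1.53 ± 0.58 (edgeR adjusted p = 0.997 for each). Jon99Cii, alphaTry, betaTry, Jon65Aiv and Mal-A1 of the digestive enzymes above were called higher, with Jon99Cii at 5.45 ± 0.39. The summed level of these enzymes was 42.6 to 72.1 CPM in old Drp1-mut and 0 to 1.84 CPM in old Cas9. Cyp4g1, a cytochrome P450 of oenocytes, was called lower at -4.28 ± 0.28. It was at 4.28, 5.87 and 512 CPM in young Cas9 and 7.15 to 16.8 CPM in young Drp1-mut, and without Cas9 replicate 3 its young log2 fold change was 1.2 instead of -3.96.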

How the data were processed

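Libraries were made by Smart-seq3, which tags the 5′ end of cDNA with a UMI; about 750 pg of cDNA entered each. The authors deposited counts, whole UMIs per gene and library for 15610 genes, per the labels and the file headers. Per the submitters' processing notes, STAR was the aligner and dm6 the build. Versions, strand use and how shared reads were handled: not given in the sources used here. The authors' deposited table of young Drp1-mut against Cas9 was made with DESeq2, per the same notes. Its fold changes are log2 values, its baseMean is a normalized signal, its standard error and statistic are a score each, and each p-value was computed by the authors, per the file headers. The other 5 deposited tables were not used here.

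Counts were tested in R 4.3.3 with edgeR 4.0.16 and its quasi-likelihood test (TMM scaling, filterByExpr by group, robust dispersions, Benjamini-Hochberg adjustment, threshold 0.05), on the libraries of the groups compared. The interaction used 4 groups, and the suspension test used summed counts with age and genotype as terms. The standard error (SE) was taken from the log2 fold change and the square root of F. Levels are CPM scaled by TMM over all 24 libraries. limma 3.58.1 is the library under edgeR, and DESeq2 1.42.0 was the second test. Code was tested on simulated data with known changes.

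Young Drp1-mut and Cas9 libraries, all 41 gene lists and the tests were chosen with earlier results of these data known. Named genes are the targets, every called gene, genes past 0.05 by DESeq2 or in the authors' deposited table with at least 20 UMIs in the higher group, up to 10 per direction called without replicate 3 whose libraries do not overlap, the 2 to 4 members of a list with the smallest p, and the 5 smallest p of each other comparison, leaving out genes with only a CG or CR number unless called or in that table. Some list members are given by their list's counts alone, and genes named beyond the rule, such as kirre, Arpc5, CG13315, ND-MWFE, ATPsynE, vri without replicate 3 and the digestive enzymes, were chosen after their values were seen. Coordinates are those of BDGP6.54 and RefSeq Release 6, which use the dm6 sequence. For 11 symbols that now name another gene (Adk2 among them) no annotation was taken. Nucleotide sequences were not used here. SE values cover the spread between the libraries or suspensions compared, as fitted by edgeR, and floors cover counting error only.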

Additional observations from a re-analysis of the deposited data

How the results depend on the processing

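For young Drp1-mut against Cas9, 6 genes were called. DESeq2 called 19, no filter on low counts 82, a fit of all 24 libraries 12 and log2 depth as a covariate 20, and the cause of these larger counts was not tested. Leaving out 1 library gave 2 to 41 calls. Total count scaling gave 8 calls, 4 higher and 4 lower, against 4 higher and 2 lower. Replicate numbers were checked for pairing between young Drp1-mut and Cas9. Deviations of same-numbered libraries correlated at -0.16, -0.06 and -0.03 over 7220 genes, and a replicate block gave 5 calls. In each of the 4 young groups replicate 3 was the deepest library and had the lowest share of mRNAs of mitochondrial DNA. A correlation over all genes cannot decide whether same-numbered libraries share such a trait, and this was not tested further. Against Marf-mut (33 calls) DESeq2 gave 98 and the replicate block 162, and leaving out a library 7 to 31. Against Opa1-mut (16) DESeq2 gave 43 and leaving out a library 3 to 32. Old Drp1-mut against Cas9 (27) gave 47 with the replicate block and 24 to 71 without 1 library. The interaction (0) gave 3 by DESeq2 and by total count scaling and 0 to 1 without 1 library. With 1 value per suspension (12) DESeq2 gave 28 and leaving out a suspension 2 to 35. Genes near 0 changed sign. Total count scaling gave -0.029 for Fis1, and equal depth gave 0.051 for Opa1 and -0.020 for Arc2. Without 1 library the log2 fold change ranged from -0.068 to 0.054 for Opa1, -0.059 to 0.36 for Arc2, -0.060 to 0.12 for Fis1, -0.21 to 0.21 for cry, -0.11 to 0.045 for Arpc5, -0.0068 to 0.43 for Pdf, -0.053 to 5.63 for CG13315 and -4.52 to 1.20 for Cyp4g1. Depth limits genes near the floor of 3 counts.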
